A study of Mus musculus with 28 samples.

Results

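The contractile genes of the mammary myoepithelium described here are Acta2, Actg2, Myh11, Mylk, Cnn1 and Oxtr, 6 of the 17097 genes that the arrays of this study measure through a probe set annotated to 1 gene. They were chosen by name, and each gene was read from the probe sets that carry its symbol alone, 11 of the 45141 on the array. Where a gene had several, the brightest on average (28 arrays) was used and the 5 others served as a check. All 6 genes passed the filter on dim probe sets in every model.

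The basal layer of the mammary gland is made of myoepithelial cells, which lie around the ducts and alveoli and squeeze milk out of them. Oxytocin binds its receptor on these cells and raises cytosolic calcium, calmodulin then activates myosin light chain kinase, and the kinase phosphorylates the light chain of smooth muscle myosin so that it pulls on actin filaments. The same proteins serve contraction in vascular and other smooth muscle, so the genes mark a contractile machinery and not the mammary gland alone. In smooth muscle cells, serum response factor with its myocardin-family partners activates many of these genes through promoter sequences known as CArG boxes.

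The study traced mouse mammary cells in which the oncogenic kinase PIK3CA-H1047R and the reporter YFP were switched on by tamoxifen, in luminal cells through K8CREERT2 or in basal cells through K5CREERT2. The title of the series names the questions as multipotency and tumour heterogeneity. Female mice received 3 injections of 5 mg tamoxifen, 3 days apart, from the age of 4 to 5 weeks, and cells were sorted by flow cytometry after digestion with collagenase and hyaluronidase. Total RNA was hybridised to Affymetrix arrays.

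There were 3 groups of tumour cells, whose labels give no time after tamoxifen. K8PIKp53 TU came from K8CREERT2/PIK3CA-H1047R/p53flox/flox/RosaYFP mice (2 arrays), K5PIK TU from K5CREERT2/PIK3CA-H1047R/RosaYFP mice (3 arrays) and K8PIK TU from K8CREERT2/PIK3CA-H1047R/RosaYFP mice (7 arrays). The oncogene-carrying YFP-positive sorted cells formed 4 groups of 2 arrays each. Luminal-K8PIK-8w and Basal-K8PIK-8w were the luminal and the basal gate of K8CREERT2/PIK3CA-H1047R/RosaYFP mice at 8 weeks after tamoxifen, and Luminal-K5PIK-10m and Basal-K5PIK-10m were those of K5CREERT2/PIK3CA-H1047R/RosaYFP mice at 10 months. The controls without the oncogene also formed 4 groups of 2 arrays each, all from animals that received tamoxifen. Luminal-K8YFP-8w and Luminal-K8YFP-10m were luminal cells of K8CREERT2/RosaYFP mice at 8 weeks and 10 months, and Basal-K5YFP-8w and Basal-K5YFP-10m were basal cells of K5CREERT2/RosaYFP mice at the same times. A comparison of K8PIK basal cells with YFP basal cells, or of K5PIK luminal cells with YFP luminal cells, therefore also compares a K8CREERT2 with a K5CREERT2 line, and oncogene and Cre line cannot be told apart in it. YFP basal and YFP luminal cells likewise come from different Cre lines, so in their comparison, and in tests built on it, gate and Cre line cannot be told apart. The labels do not say whether replicate arrays came from separate animals, so p-values measure the spread between these arrays, which may be technical.

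Values are the authors' deposited log2 expression levels, on which a difference of 1 is a 2-fold change. Array medians lay between 4.40 and 4.50. Across genes, each read from 1 probe set, replicate arrays of sorted groups correlated at 0.973 to 0.995 and those of tumour groups at 0.919 to 0.982. A probe set was counted as dim where it did not exceed the 40th percentile of the array, a level between 3.89 and 3.99. Genes were tested with limma over all genes that were above this level on at least 2 arrays of the fit, and a gene counted as called where its p, adjusted by Benjamini-Hochberg, was under 0.05. Since expression was measured in sorted populations, fewer contractile cells and less RNA per cell cannot be told apart.

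The promoters are shown because the members moved together between gates and CArG boxes are the element known to control contractile genes in smooth muscle. RefSeq (GRCm38.p6) promoters were at hand for 4 of the 6 genes, Acta2, Mylk, Cnn1 and Oxtr, and not for Actg2 and Myh11. The 250 bases before the start of Acta2 lie at chr19:34255374-34255623 on the minus strand and those of Mylk at chr16:34784700-34784949 on the plus strand. Both are printed 5′ to 3′ and the capitals mark CArG-like boxes, that is, a CArG box (CC, then 6 bases A or T, then GG) in which 1 of the 6 central bases is C or G.
Acta2: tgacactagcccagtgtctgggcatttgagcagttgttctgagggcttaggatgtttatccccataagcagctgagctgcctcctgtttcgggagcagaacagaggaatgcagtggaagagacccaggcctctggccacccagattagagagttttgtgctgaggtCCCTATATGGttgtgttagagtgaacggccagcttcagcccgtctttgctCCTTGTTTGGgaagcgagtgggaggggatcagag
Mylk: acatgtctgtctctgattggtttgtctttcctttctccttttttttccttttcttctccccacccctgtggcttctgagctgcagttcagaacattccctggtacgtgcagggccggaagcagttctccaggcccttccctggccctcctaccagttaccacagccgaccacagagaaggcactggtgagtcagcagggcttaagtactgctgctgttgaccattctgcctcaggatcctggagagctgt
The Acta2 window held 2 CArG-like boxes, which begin 84 and 34 bases before the start, and no full CArG box. The windows of Mylk, Cnn1 and Oxtr held neither form. Searched on both strands over 32851 mouse promoter windows of this length, a full CArG box was present in 1.47% and a CArG-like box in 7.24%. The motif GGAATG, the site known as M-CAT and bound by TEAD factors, occurred in the windows of Acta2 and Mylk and in 12.6% of all. A match is a string of letters in the window and says nothing of binding.

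In the YFP controls all 6 genes were higher in basal than in luminal cells at both times. Acta2, the smooth muscle actin that forms the thin filaments of myoepithelial cells, had log2 levels of 11.22 and 11.39 in Basal-K5YFP-8w and 11.61 and 11.60 in Basal-K5YFP-10m, against 6.94 and 8.76 in Luminal-K8YFP-8w and 7.11 and 7.46 in Luminal-K8YFP-10m. Myh11, the smooth muscle myosin heavy chain that is the motor on these filaments, had 11.04 and 11.44 in Basal-K5YFP-8w and 11.55 and 11.37 in Basal-K5YFP-10m, against 6.25 and 8.16 in Luminal-K8YFP-8w and 5.70 and 6.29 in Luminal-K8YFP-10m. The basal arrays were all high and close together for both genes, while replicate 2 of Luminal-K8YFP-8w stood above the other luminal arrays. That array was also the highest YFP luminal one for Mylk and Cnn1. Its fibroblast, endothelial and mural marker lists averaged 5.52, 5.92 and 5.74, against 4.59 to 4.70, 5.02 to 5.25 and 5.36 to 5.45 in the other 3 YFP luminal arrays, and the part of those cells in its contractile levels was not tested.

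Mylk, the myosin light chain kinase that starts contraction, had 10.41 and 10.75 in Basal-K5YFP-8w and 11.50 and 11.40 in Basal-K5YFP-10m, against 5.37 and 7.45 in Luminal-K8YFP-8w and 5.95 and 5.90 in Luminal-K8YFP-10m. Cnn1, calponin, which binds actin and restrains the myosin ATPase, had 8.95 and 9.75 in Basal-K5YFP-8w and 9.12 and 9.58 in Basal-K5YFP-10m, against 4.89 and 5.74 in Luminal-K8YFP-8w and 5.20 and 5.62 in Luminal-K8YFP-10m. No luminal array came near a basal one for either gene. Actg2, the enteric form of smooth muscle actin, had 6.25 and 7.17 in Basal-K5YFP-8w and 6.74 and 6.80 in Basal-K5YFP-10m, against 3.76 and 3.78 in Luminal-K8YFP-8w and 3.48 and 3.75 in Luminal-K8YFP-10m. All 4 YFP luminal levels of Actg2 were dim, so the difference was measured against a level near background and may understate the true one. Oxtr, the receptor of oxytocin, had 5.56 and 6.07 in Basal-K5YFP-8w and 5.23 and 5.58 in Basal-K5YFP-10m, against 4.55 and 4.53 in Luminal-K8YFP-8w and 4.34 and 4.48 in Luminal-K8YFP-10m.

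**Figure D1:**
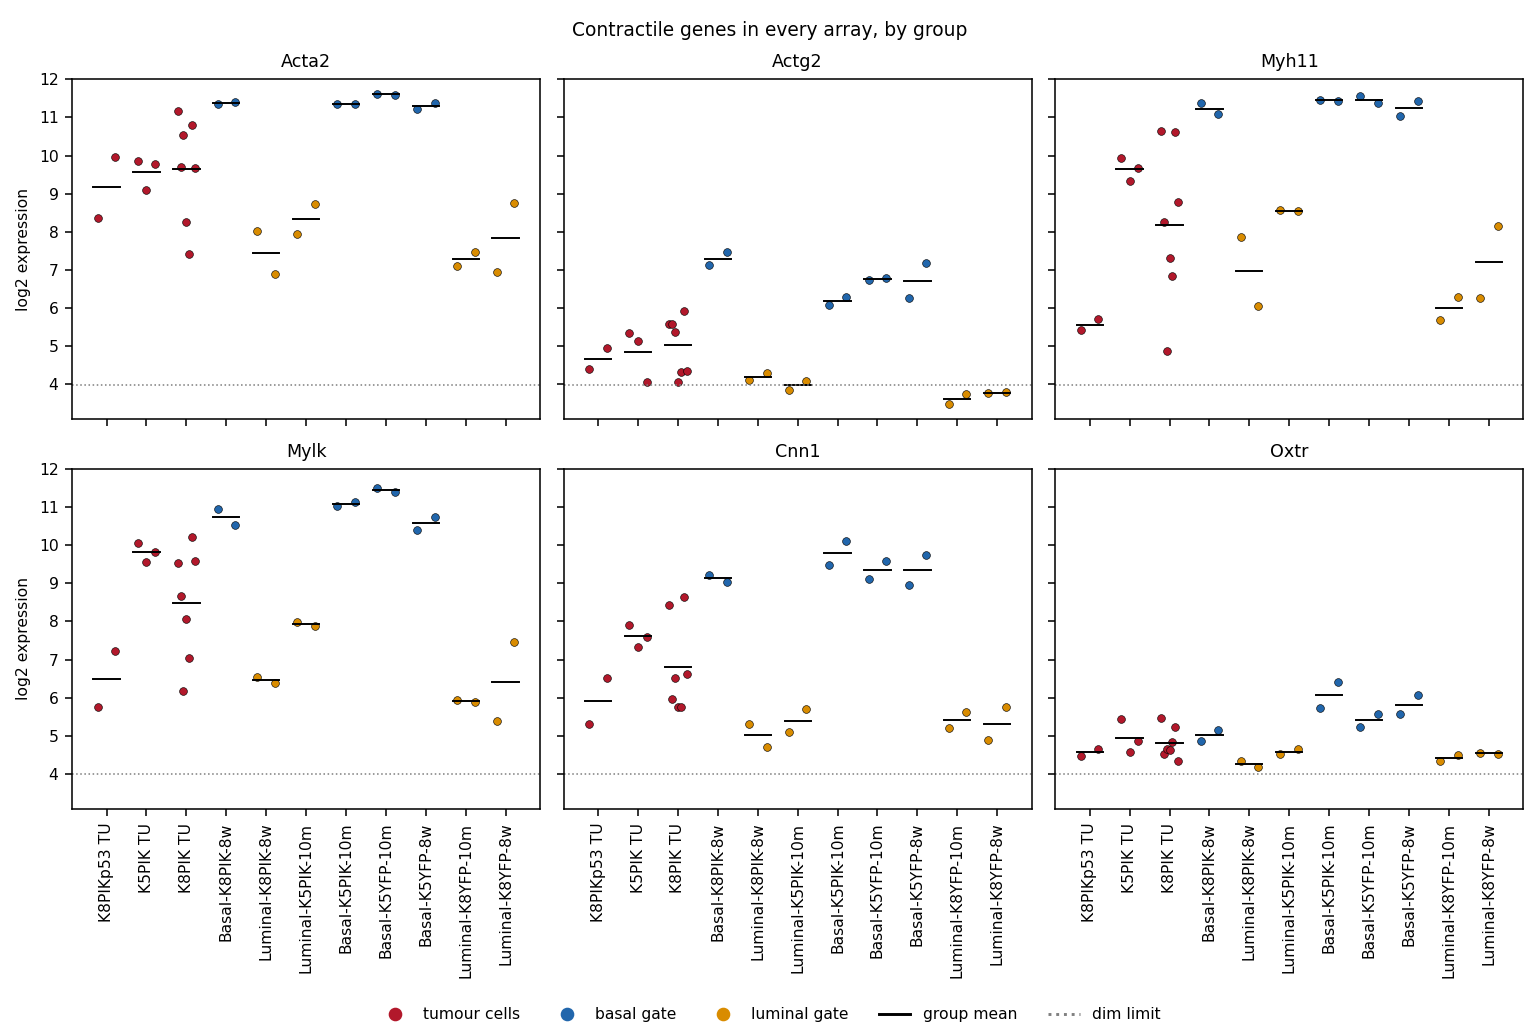
Log2 expression of the 6 contractile genes (vertical axis) on each of the 28 arrays, by group, with tumour cells in red, basal cells in blue and luminal cells in orange; bars are group means and the dotted line is the dim limit. The 8 basal arrays lie above the 8 luminal arrays in every panel, the tumour arrays lie between them, among or below the luminal arrays, and for Oxtr also within the basal range, and the 7 K8PIK TU arrays span the widest range.

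At 8 weeks the basal minus luminal log2 difference between the K5CREERT2 and K8CREERT2 YFP lines was 3.45 ± 0.48 for Acta2 (SE, adjusted p = 0.000315), 2.94 ± 0.25 for Actg2 (adjusted p = 1.07e-05) and 4.04 ± 0.56 for Myh11 (adjusted p = 0.000318). It was 4.17 ± 0.45 for Mylk (adjusted p = 5.16e-05), 4.03 ± 0.36 for Cnn1 (adjusted p = 1.59e-05) and 1.27 ± 0.24 for Oxtr (adjusted p = 0.00201). Of all genes tested, 10.4% were called higher and 19.9% lower in basal cells. At 10 months the differences were 4.32 ± 0.48 for Acta2, 3.15 ± 0.25 for Actg2, 5.47 ± 0.56 for Myh11, 5.53 ± 0.45 for Mylk, 3.94 ± 0.36 for Cnn1 and 0.99 ± 0.24 for Oxtr, with adjusted p from 2.52e-06 to 0.00503. There, 17.6% of all genes were called higher and 25.8% lower. The median difference over the members was 3.74 at 8 weeks and 4.13 at 10 months, beside -0.09 and -0.12 over all genes tested. The number of members called stayed at 6 when any 1 array of the compared groups was left out.

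Other genes of the contraction pathway were higher in basal cells too, though fewer of them passed. Of 17 genes that feed or restrain contraction, 8 were higher at 8 weeks and 9 were higher and 1 lower at 10 months. At 8 weeks the regulatory light chain Myl9, the substrate of the kinase, differed by 3.80 ± 0.37, caldesmon Cald1 by 3.16 ± 0.29, the tropomyosin Tpm2 by 3.10 ± 0.23 and Prkg1, the cGMP-dependent kinase that relaxes smooth muscle, by 3.05 ± 0.32. Rhoa, a small GTPase, was the gene lower at 10 months. Of 17 genes that anchor the filaments, 10 were higher at 8 weeks and 14 were higher and 1 lower at 10 months, among them Pgm5 at 2.53 ± 0.29 and the intermediate filament gene Synm at 1.55 ± 0.29 at 8 weeks. Of 9 tested genes for serum response factor, its partners and related regulators, 4 were higher at 8 weeks and 6 at 10 months, with Tead1, a factor that binds M-CAT sites, at 1.95 ± 0.31 at 10 months. Of 12 genes of non-muscle actomyosin, 1 was higher at 8 weeks and 4 were higher and 1 lower at 10 months, with the non-muscle myosin heavy chain Myh10 at 1.03 ± 0.21 and 1.81 ± 0.21. The medians of these 4 lists at 8 weeks were 0.51, 0.80, 0.55 and -0.03.

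Myocardin itself (Myocd) was dim on every sorted array, with levels of 3.51 to 3.78 in YFP basal cells and 3.16 to 3.29 in YFP luminal cells. Desmin (Des), an intermediate filament of vascular and visceral muscle, was at 3.87 to 4.47 in YFP basal cells and 3.64 to 3.84 in YFP luminal cells, close to the dim limit.

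Markers of vascular cells moved with the gate. Of 10 mural cell genes, 5 were higher and 1 lower in YFP basal than YFP luminal cells at 8 weeks, with Rgs5 at 2.10 ± 0.56, and 3 were higher and 1 lower at 10 months, with Rgs5 at 3.30 ± 0.56. Of 12 endothelial genes, 9 were higher at 8 weeks and 10 at 10 months. The mural list averaged 5.62 to 6.57 on the YFP basal arrays and 5.36 to 5.74 on the YFP luminal arrays, and its defining channel gene Kcnj8 was at 3.51 to 4.60 in YFP basal cells and 3.28 to 3.63 in YFP luminal cells, near the dim limit. The endothelial list averaged 6.24 to 7.44 on the YFP basal arrays and 5.02 to 5.92 on the YFP luminal arrays. The fibroblast list averaged 5.67 to 6.35 on the YFP basal arrays and 4.59 to 5.52 on the YFP luminal arrays. The part of vascular cells and fibroblasts in the contractile levels was not tested.

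In K8PIK mice, whose oncogene is switched on through a luminal driver, the YFP-positive cells of the basal gate carried the contractile genes at levels that, on the main probe sets, overlapped or lay near those of YFP basal cells. Acta2 had 11.35 and 11.42 in Basal-K8PIK-8w, against 11.22 and 11.39 in Basal-K5YFP-8w, and Myh11 had 11.37 and 11.09, against 11.04 and 11.44. Mylk had 10.96 and 10.52 in Basal-K8PIK-8w, against 10.41 and 10.75 in Basal-K5YFP-8w, and Cnn1 had 9.23 and 9.04, against 8.95 and 9.75. The ranges of the groups overlapped for these 4 genes. Actg2 had 7.12 and 7.46 in Basal-K8PIK-8w, against 6.25 and 7.17 in Basal-K5YFP-8w, and Oxtr had 4.87 and 5.16, against 5.56 and 6.07. For Oxtr both K8PIK basal arrays lay below both YFP basal arrays.

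None of the 6 genes passed between these groups, where 0.335% of all genes were called higher and 0.0837% lower. The log2 differences, K8PIK basal minus YFP basal, were 0.08 for Acta2 (95% interval -0.96 to 1.12), 0.58 for Actg2 (0.04 to 1.12), -0.01 for Myh11 (-1.23 to 1.21), 0.16 for Mylk (-0.81 to 1.13) and -0.22 for Cnn1 (-1.01 to 0.57). Oxtr differed by -0.80 (-1.32 to -0.29, adjusted p = 0.165), and its second probe set by -1.44 ± 0.49 (adjusted p = 0.219). The second Acta2 probe set differed by 1.30 ± 0.37 (adjusted p = 0.151), with 6.23 to 6.66 in Basal-K8PIK-8w, against 4.97 to 5.33 in Basal-K5YFP-8w. 

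Between the gates of K8PIK mice all 6 genes were called. Basal minus luminal, Acta2 differed by 3.93 ± 0.48 (adjusted p = 0.000149), Actg2 by 3.10 ± 0.25 (adjusted p = 1.08e-05) and Cnn1 by 4.12 ± 0.36 (adjusted p = 1.79e-05). Myh11 differed by 4.27 ± 0.56, Mylk by 4.29 ± 0.45 and Oxtr by 0.76 ± 0.24 (adjusted p = 0.0411), and 8.9% of all genes were called higher and 10.6% lower. The Oxtr call was lost when any 1 of the 4 arrays was left out, with differences of 0.61 to 0.90 and adjusted p of 0.0818 to 0.216, but its second probe set differed by 2.54 ± 0.49 (adjusted p = 0.00309). In this comparison 9 of the 17 genes of contraction, 7 of the 17 filament anchors and 3 of the 9 regulators were higher, while 1 of 10 mural genes was higher (Mcam, 1.59 ± 0.30), 1 was lower, and 0 of 12 endothelial genes passed. The basal to luminal difference itself did not pass as different between K8PIK and YFP mice at 8 weeks for any member, with differences of differences from -0.52 for Oxtr to 0.47 for Acta2. There, 0.0076% of all genes were called higher and 0% lower.

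The K8PIK luminal cells gave no called change in any contractile gene, in a comparison in which basal keratins rose. Acta2 had 8.03 and 6.88 in Luminal-K8PIK-8w, against 6.94 and 8.76 in Luminal-K8YFP-8w, and Myh11 had 7.86 and 6.05, against 6.25 and 8.16. Mylk had 6.53 and 6.37 in Luminal-K8PIK-8w, against 5.37 and 7.45 in Luminal-K8YFP-8w, and Cnn1 had 5.32 and 4.71, against 4.89 and 5.74. The groups overlapped for all 4. Oxtr had 4.35 and 4.17 in Luminal-K8PIK-8w, against 4.55 and 4.53 in Luminal-K8YFP-8w, so both K8PIK arrays were lower on the main probe set. On the second Oxtr probe set the groups overlapped, at 3.20 to 3.39 against 3.23 to 3.45, all dim. For Actg2 both K8PIK luminal arrays, at 4.10 and 4.29, lay above both YFP luminal arrays, at 3.76 and 3.78, and were just over the dim limit.

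The log2 differences were -0.39 for Acta2 (95% interval -1.43 to 0.65), 0.42 for Actg2 (-0.12 to 0.97), -0.25 for Myh11 (-1.47 to 0.97), 0.04 for Mylk (-0.93 to 1.01), -0.30 for Cnn1 (-1.09 to 0.49) and -0.29 for Oxtr (-0.80 to 0.23). Of all genes, 0.144% were called higher and 0.205% lower. The median over the members was -0.27, beside -0.04 over all genes. The values depended on single arrays. Without replicate 2 of Luminal-K8YFP-8w, the array with raised stromal markers, the differences were 0.51 for Acta2, 0.71 for Myh11, 1.08 for Mylk and 0.12 for Cnn1, and without replicate 1 they were -1.30, -1.20, -1.0 and -0.73. Without replicate 2 of Luminal-K8PIK-8w they were 0.18, 0.66, 0.12 and 0.00, and without replicate 1 of it -0.96, -1.15, -0.04 and -0.61. No member was called in any of these fits. In the same comparison 5 of 11 basal genes outside the contractile group rose, among them the hemidesmosome collagen Col17a1 by 2.90 ± 0.41 (adjusted p = 0.0101), the keratins Krt5 by 2.81 ± 0.32 (adjusted p = 0.00299) and Krt14 by 2.19 ± 0.31 (adjusted p = 0.0101), and the laminin chain Lama3 by 2.26 ± 0.39 (adjusted p = 0.0335). Trp63, the master regulator of basal identity, differed by 1.20 ± 0.31 (adjusted p = 0.143). Of the 17 filament anchors Pgm5 rose by 1.86 ± 0.29 (adjusted p = 0.0171), and none of the 17 genes of contraction passed.

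To place these cells between the normal gates, each level was set on a scale on which the mean of the 4 YFP luminal arrays is 0 and the mean of the 4 YFP basal arrays is 100. On it Luminal-K8PIK-8w stood at 77.6 for Krt5 and 70.0 for Krt14, and at -2.9 for Acta2, 16.4 for Actg2, 7.5 for Myh11, 5.9 for Mylk, -8.8 for Cnn1 and -19.3 for Oxtr. These are positions on the main probe sets. On the second Oxtr probe set the Luminal-K8PIK-8w mean was 3.30, beside a YFP luminal mean of 3.29. No test was made of the difference between genes.

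The K5PIK luminal cells at 10 months, which come from a basal driver, differed from YFP luminal cells in 2 of the 6 genes. Myh11 had 8.57 and 8.53 in Luminal-K5PIK-10m, against 5.70 and 6.29 in Luminal-K8YFP-10m, a difference of 2.56 ± 0.56 (adjusted p = 0.0202). Mylk had 7.98 and 7.89 in Luminal-K5PIK-10m, against 5.95 and 5.90 in Luminal-K8YFP-10m, a difference of 2.01 ± 0.45 (adjusted p = 0.0218). Both genes were higher in both K5PIK luminal arrays than in any other sorted luminal array, the YFP array with raised stromal markers included. Acta2 had 7.95 and 8.74 in Luminal-K5PIK-10m, against 7.11 and 7.46 in Luminal-K8YFP-10m, a difference of 1.06 (95% interval 0.02 to 2.10, adjusted p = 0.214). Cnn1 had 5.10 and 5.69 in Luminal-K5PIK-10m, against 5.20 and 5.62 in Luminal-K8YFP-10m, a difference of -0.01 (-0.80 to 0.78). The ranges of Cnn1 overlapped and those of Acta2 did not. Actg2 had 3.86 and 4.09 in Luminal-K5PIK-10m, against 3.48 and 3.75 in Luminal-K8YFP-10m (difference 0.36, -0.19 to 0.90), and Oxtr had 4.51 and 4.66, against 4.34 and 4.48 (0.18, -0.34 to 0.69). Of all genes, 2.08% were called higher and 4.32% lower.

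The Myh11 and Mylk calls rested on groups of 2 arrays. They were lost without replicate 1 or replicate 2 of Luminal-K8YFP-10m and without replicate 1 of Luminal-K5PIK-10m. Each of these fits leaves 1 array in a group, and the differences were 2.26 to 2.85 for Myh11 and 1.96 to 2.04 for Mylk. In a fit of all 28 arrays the adjusted p was 0.349 for Myh11 and 0.315 for Mylk. That fit pools in the spread of the tumours, with an SD of 2.08 for Myh11 and 1.46 for Mylk in K8PIK TU. The second Myh11 probe set was at 4.09 and 3.67 in Luminal-K5PIK-10m, against 3.38 and 3.62 in Luminal-K8YFP-10m, near the dim limit, and did not pass (0.38 ± 0.28, adjusted p = 0.461). Of the other Mylk probe sets, ranked by mean level, the third was called (1.25 ± 0.32, adjusted p = 0.0405) and the second was not (0.52 ± 0.24, adjusted p = 0.214). Mural genes did not pass in this comparison (0 of 10), and the mural list averaged 5.52 and 5.41 in Luminal-K5PIK-10m, against 5.36 and 5.44 in Luminal-K8YFP-10m. The fibroblast list averaged 5.42 and 4.48 in Luminal-K5PIK-10m, against 4.64 and 4.59 in Luminal-K8YFP-10m. In the same arrays the immune list averaged 5.35 and 4.77, against 4.55 and 4.61. The endothelial list averaged 5.22 and 4.69, against 5.19 and 5.25. The part of those cells in the Myh11 and Mylk levels was not tested.

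Few other contraction genes moved with Myh11 and Mylk in these luminal cells. Of the 17 genes of contraction the calcium channel gene Cacna1c rose by 1.16 ± 0.26 (adjusted p = 0.0199) and the tropomyosin Tpm1 fell by 0.59 on the log2 scale (SE 0.15, adjusted p = 0.0414). Of the 17 anchors, Pdlim3 rose by 1.83 ± 0.20 and Pgm5 by 1.26 ± 0.29, while Fhl1 fell by 2.61 and Cav1, the caveolae protein, fell by 2.57 on the log2 scale. The basal genes Col17a1, Krt5 and Krt14 rose by 1.65 ± 0.41, 1.54 ± 0.32 and 1.40 ± 0.31.

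All 6 genes were lower in luminal than in basal cells of the K5PIK mice. Myl9, the light chain on which the kinase acts, fell by 4.10 on the log2 scale (SE 0.37, adjusted p = 9.95e-06). The differences, luminal minus basal, were -3.01 ± 0.48 for Acta2 (adjusted p = 0.000591), -2.21 ± 0.25 for Actg2 (adjusted p = 4.71e-05), -2.90 ± 0.56 for Myh11 (adjusted p = 0.00234), -3.15 ± 0.45 for Mylk (adjusted p = 0.000251), -4.40 ± 0.36 for Cnn1 (adjusted p = 5.37e-06) and -1.49 ± 0.24 for Oxtr (adjusted p = 0.000607). Of all genes, 10.4% were called higher and 13.2% lower. Of the other lists, 11 of the 17 genes of contraction and 13 of the 17 anchors fell, and 6 of the 9 regulators fell while 1, Mrtfb, rose. The second and weaker Acta2 probe set was not called here (-0.47 ± 0.37, adjusted p = 0.418), and the Myh11 call was lost in a fit of all 28 arrays (adjusted p = 0.13).

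The basal to luminal gap at 10 months was tested between K5PIK and YFP mice. The Mylk gap was 3.15 in K5PIK mice, against 5.53 in YFP mice, and the difference of -2.37 ± 0.64 passed (adjusted p = 0.044). The Myh11 gap was 2.90 in K5PIK mice, against 5.47 in YFP mice, a difference of -2.57 (95% interval -4.29 to -0.84, adjusted p = 0.0661). The Cnn1 gap was 4.40 in K5PIK mice, against 3.94 in YFP mice, and that of Acta2 was 3.01, against 4.32. Neither of the last 2 passed, nor did Actg2 or Oxtr, and the basal minus luminal difference was called higher in K5PIK mice for 5.19% of all genes and lower for 1.96%. The Mylk result held for its main probe set only. On the second the difference of gaps was 0.12 ± 0.33 (adjusted p = 0.858) and on the third it was -0.83 ± 0.46 (adjusted p = 0.265). It was also lost when any 1 of 7 of the 8 arrays was left out, with adjusted p of 0.0719 to 0.153 and differences of -2.42 to -2.32.

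**Figure D2:**
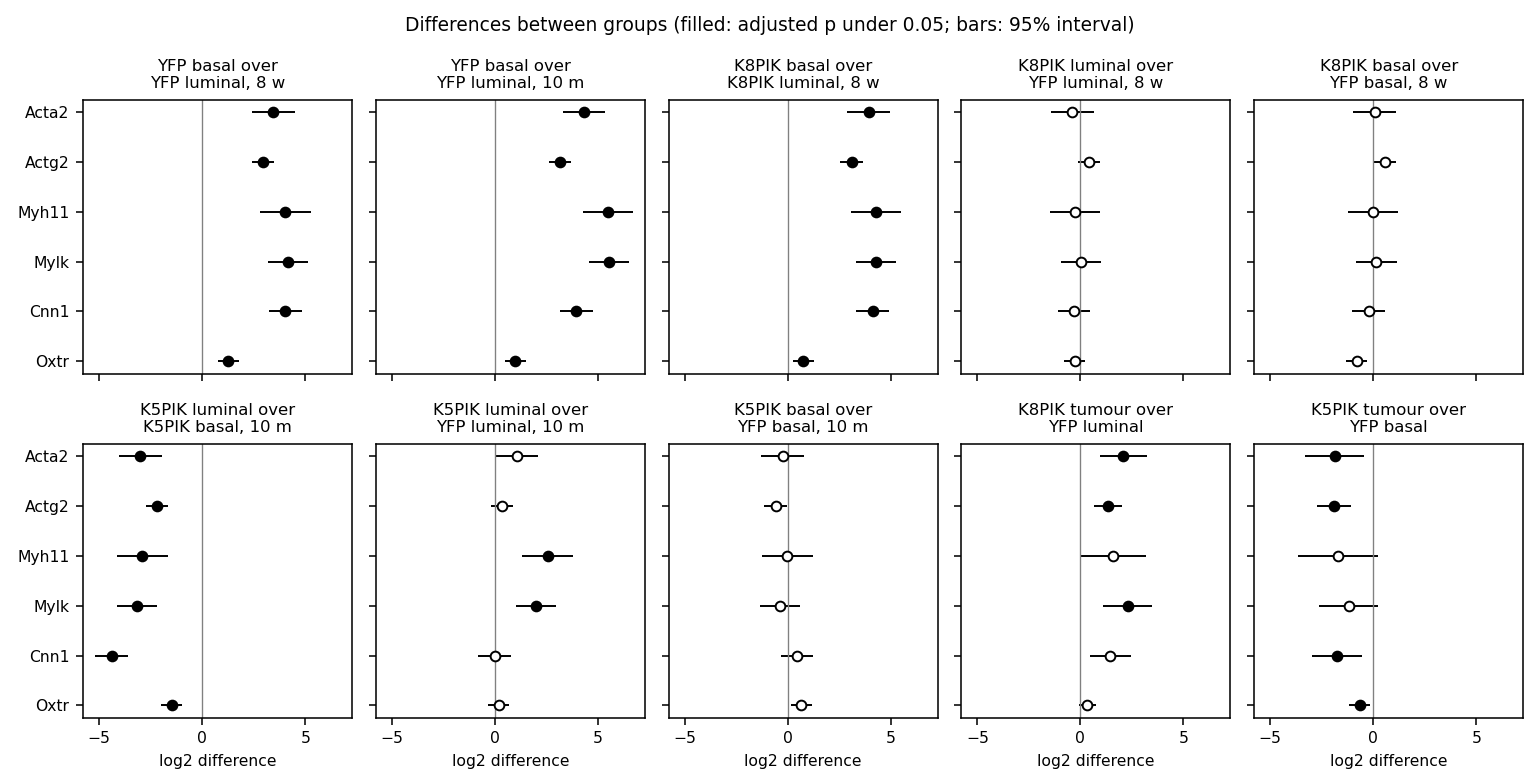
Log2 differences (horizontal axis, first named group minus second) of the 6 genes in 10 comparisons, with 95% intervals; filled points passed an adjusted p under 0.05. All 6 genes are filled between gates, none in the 3 comparisons of K8PIK luminal cells or of either kind of PIK basal cells with YFP cells, and 2, Myh11 and Mylk, in K5PIK luminal cells.

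In the basal gate at 10 months no main probe set was called between K5PIK and YFP cells. Acta2 had 11.36 and 11.35 in Basal-K5PIK-10m, against 11.61 and 11.60 in Basal-K5YFP-10m, and Myh11 had 11.47 and 11.44, against 11.55 and 11.37. Cnn1 had 9.47 and 10.11 in Basal-K5PIK-10m, against 9.12 and 9.58 in Basal-K5YFP-10m, Mylk had 11.04 and 11.14, against 11.50 and 11.40, and Actg2 had 6.09 and 6.28, against 6.74 and 6.80. Oxtr had 5.73 and 6.41 in Basal-K5PIK-10m, against 5.23 and 5.58 in Basal-K5YFP-10m. On the main probe sets both K5PIK arrays lay below both YFP arrays for Acta2, Mylk and Actg2 and above them for Oxtr, and the groups overlapped for Myh11 and Cnn1.

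The differences were -0.25 for Acta2 (95% interval -1.29 to 0.79), -0.58 for Actg2 (-1.13 to -0.04), -0.01 for Myh11 (-1.23 to 1.21), -0.36 for Mylk (-1.34 to 0.61), 0.44 for Cnn1 (-0.35 to 1.23) and 0.67 for Oxtr (0.15 to 1.18, adjusted p = 0.0718). Of all genes, 8.28% were called higher and 8.02% lower. The other Mylk probe sets ran the other way from the main one, the second at 9.65 and 9.87 in Basal-K5PIK-10m, against 9.0 and 9.24 in Basal-K5YFP-10m (0.64 ± 0.24, adjusted p = 0.0809), and the third at 9.67 and 9.88, against 9.23 and 9.49 (0.42 ± 0.32, adjusted p = 0.397). The second Oxtr probe set, at 7.45 and 8.98 in Basal-K5PIK-10m, against 6.21 and 7.16 in Basal-K5YFP-10m, differed by 1.53 ± 0.49 (adjusted p = 0.0501). Without replicate 1 of Basal-K5PIK-10m, Oxtr was called higher (1.01, adjusted p = 0.0228). The weaker Acta2 probe set was lower by a called amount, with 3.81 and 4.04 in Basal-K5PIK-10m, against 6.30 and 4.73 in Basal-K5YFP-10m (-1.59 ± 0.37, adjusted p = 0.0151). Both Acta2 probe sets were thus lower in K5PIK basal cells, by unlike amounts, and only the weaker was called. The main one carries an _s_at name, which the maker gives to probe sets that can match more than 1 transcript. Of 12 endothelial genes 7 were lower in K5PIK basal cells, and of 10 mural genes Rgs5 was lower by 1.88 on the log2 scale (SE 0.56, adjusted p = 0.0379); their part in the second Acta2 probe set was not tested.

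**Figure D3:**
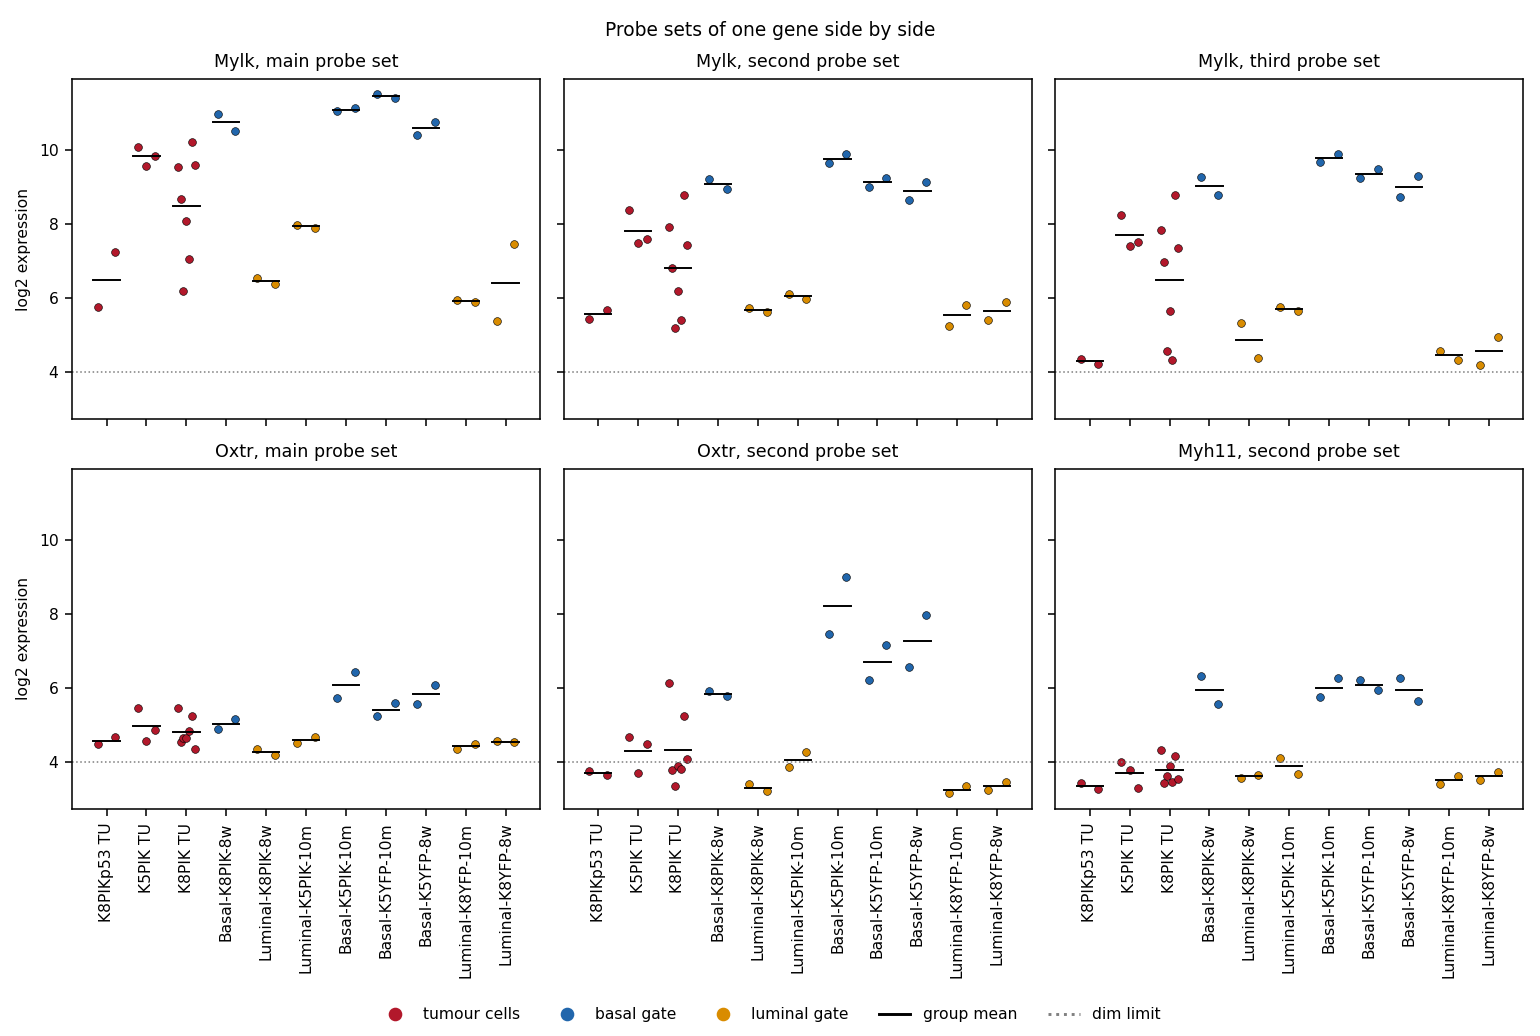
Log2 levels (vertical axis) on every array for the 3 probe sets of Mylk, the 2 of Oxtr and the second of Myh11, by group; bars are group means and the dotted line is the dim limit. All place the basal gate above the luminal gate; for Mylk, Luminal-K5PIK-10m stands 2.01 above Luminal-K8YFP-10m on the main probe set and 0.52 above it on the second.

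No member was called between ages in the YFP cells. Between 10 months and 8 weeks the differences in basal cells ran from -0.41 for Oxtr (95% interval -0.93 to 0.10) to 0.87 for Mylk (-0.10 to 1.84), where 0.875% of all genes were called higher and 0.395% lower. In luminal cells they ran from -1.21 for Myh11 (-2.43 to 0.01) to 0.09 for Cnn1 (-0.70 to 0.88), where 0.0304% were called higher and 0.0304% lower. Without replicate 1 of Luminal-K8YFP-8w, which leaves the array with the higher stromal markers alone in its group, Mylk was called lower at 10 months (-1.52, adjusted p = 0.0466).

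Over the 8 groups of sorted cells the basal and luminal arrays did not overlap for any of the 6 genes, whatever the genotype or time. The 8 basal arrays ranged from 11.22 to 11.61 for Acta2, 11.04 to 11.55 for Myh11, 10.41 to 11.50 for Mylk and 8.95 to 10.11 for Cnn1, against 6.88 to 8.76, 5.70 to 8.57, 5.37 to 7.98 and 4.71 to 5.74 in the 8 luminal arrays. The distance between the lowest basal and the highest luminal array was 3.21 for Cnn1, 2.48 for Myh11, 2.46 for Acta2, 2.43 for Mylk and 1.80 for Actg2. For Oxtr it was 0.21 on the main probe set and 1.5 on the second. Krt5 and Krt14, the basal keratins, were separated by 0.20 and 0.41, and the K8PIK luminal arrays reached 11.16 and 11.18.

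The order of the group means was alike for the 6 genes. The 4 basal groups were the highest for every member, and most of them did not differ from their neighbour in the order beyond the range of their arrays. The tumour groups came next and the luminal groups last for Acta2, Actg2 and Cnn1. For Myh11 and Mylk the order differed, since Luminal-K5PIK-10m, at means of 8.55 and 7.93, lay above K8PIKp53 TU, at 5.56 and 6.49. For Myh11 it also lay above K8PIK TU, at 8.19, though the ranges of these 2 groups overlapped. For Oxtr Luminal-K5PIK-10m, at a mean of 4.59, lay next to K8PIKp53 TU, at 4.57, and their ranges overlapped.

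K8PIK tumours carried 3 of the 6 genes at higher levels than YFP luminal cells, the population in which K8CREERT2 is active. Acta2 ran from 7.43 to 11.17 with a median of 9.71 in the 7 K8PIK TU arrays, against 6.94 to 8.76 in the 4 YFP luminal arrays. Mylk ran from 6.18 to 10.20 with a median of 8.67, against 5.37 to 7.45, and Actg2 from 4.05 to 5.91 with a median of 5.38, against 3.48 to 3.78. Above the highest YFP luminal array lay 5 of the 7 tumours for Acta2, 5 for Mylk and all 7 for Actg2, whose YFP luminal levels were dim. Myh11 ran from 4.86 to 10.65 with a median of 8.26 in K8PIK TU, against 5.70 to 8.16 in YFP luminal cells, and 4 tumours lay above the highest of those. Cnn1 ran from 5.75 to 8.65 with a median of 6.52, against 4.89 to 5.74, and Oxtr from 4.34 to 5.45 with a median of 4.65, against 4.34 to 4.55. All 7 tumours were above the YFP luminal range for Cnn1, the lowest of them barely, and 5 were for Oxtr.

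The differences from the mean of the YFP luminal groups were 2.09 ± 0.55 for Acta2 (adjusted p = 0.0209), 1.33 ± 0.32 for Actg2 (adjusted p = 0.0128) and 2.30 ± 0.57 for Mylk (adjusted p = 0.0142). They were 1.59 for Myh11 (95% interval -0.01 to 3.18, adjusted p = 0.199), 1.45 for Cnn1 (0.46 to 2.44, adjusted p = 0.0557) and 0.33 for Oxtr (-0.09 to 0.75, adjusted p = 0.323). Of all genes, 4.47% were called higher and 6.13% lower. Of the 17 genes of contraction Myl9 (2.53 ± 0.60), Tpm2 (1.93 ± 0.42) and Cacna1c (1.58 ± 0.38) rose, and of 11 basal genes Krt5, Krt14, Trp63 and Vim did. The count of 3 members became 0 without replicate 1 of Luminal-K8YFP-8w or of Luminal-K8YFP-10m and 1 without replicate 2 of Luminal-K8YFP-10m. It became 4 without tumour 3, when Myh11 was called (2.14, adjusted p = 0.0289), and 4 without tumour 2, 4 or 5, when Cnn1 was called (1.59 to 1.63, adjusted p of 0.0283 to 0.0454). The second Acta2 probe set was not called (0.19 ± 0.23, adjusted p = 0.665). It was dim on all YFP luminal arrays and on all but 1 K8PIK TU array. Of the other Mylk probe sets the third was called (1.99 ± 0.61, adjusted p = 0.0407) and the second was not (1.23 ± 0.48, adjusted p = 0.106). Fibroblast genes rose in the same comparison, 4 of 11 tested, with Col3a1 at 3.15 ± 0.81 and Col1a1 at 2.81 ± 0.88, while 0 of 10 mural genes passed. The fibroblast list averaged 4.83 to 7.92 in K8PIK TU, against 4.59 to 5.52 in YFP luminal cells, and the mural list 5.36 to 6.96, against 5.36 to 5.74. Their part in the contractile levels was not tested.

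Against K8PIK luminal cells none of the 6 passed, with 0.834% of all genes called higher and 1.66% lower. The differences were 2.20 for Acta2 (95% interval 0.72 to 3.68, adjusted p = 0.0991), 2.02 for Mylk (0.50 to 3.54, adjusted p = 0.139), 1.80 for Cnn1 (0.53 to 3.07, adjusted p = 0.114), 1.23 for Myh11 (-0.81 to 3.27), 0.83 for Actg2 (-0.03 to 1.69) and 0.55 for Oxtr (0.01 to 1.09). Without tumour 5 Acta2 was called (2.57, adjusted p = 0.0337), and without tumour 3 Mylk was (2.40, adjusted p = 0.0402). Against K8PIK basal cells 4 were lower, Actg2 by -2.27 ± 0.41 (adjusted p = 0.000909), Myh11 by -3.04 ± 0.98 (adjusted p = 0.0299), Mylk by -2.27 ± 0.73 (adjusted p = 0.0295) and Cnn1 by -2.32 ± 0.61 (adjusted p = 0.01), with 11.8% of all genes called higher and 10.7% lower. Acta2 differed by -1.73 (-3.21 to -0.25, adjusted p = 0.0857), with its second probe set called lower at -2.91 ± 0.29 (adjusted p = 8.77e-06), and Oxtr by -0.21 (-0.74 to 0.33). The second Oxtr probe set differed by -1.52 (-2.66 to -0.38, adjusted p = 0.0509). Without either Basal-K8PIK-8w array the count fell to 1, Actg2, and without tumour 1 it was 5, with Acta2 called (-1.98, adjusted p = 0.04). Both comparisons share the tumour arrays with the one above.

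The 7 K8PIK tumours were spread over much of the range between the YFP gates, with an SD of 2.08 for Myh11, 1.46 for Mylk, 1.37 for Acta2 and 1.23 for Cnn1. Tumours 1 and 6 had the highest levels of Acta2, Myh11 and Cnn1, and for Mylk tumour 7, at 9.60, lay between them. They had 11.17 and 10.81 for Acta2, 10.65 and 10.61 for Myh11, 9.53 and 10.20 for Mylk and 8.43 and 8.65 for Cnn1, between 69.3 and 92.8 on the scale from YFP luminal to YFP basal. Tumours 4 and 5 were low, with 8.26 and 7.43 for Acta2, 7.30 and 6.85 for Myh11, 8.07 and 7.05 for Mylk and 5.75 and 5.76 for Cnn1. They also had the lowest averages of the fibroblast list, 5.32 and 4.83 beside 5.92 to 7.92 in the others, and of the mural list, 5.56 and 5.36 beside 6.20 to 6.96, and the part of stromal cells in these levels was not tested. On the main probe sets no tumour of any genotype reached the lowest YFP basal array for Acta2, Actg2, Myh11, Mylk or Cnn1, though tumour 6 did on both other Mylk probe sets. For Oxtr 2 of 7 K8PIK TU arrays and 1 of 3 K5PIK TU arrays did on the main probe set, but 0 of 7 and 0 of 3 on the second.

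The members did not all go together within a tumour, and tumour 3 was the widest apart. It had 10.53 for Acta2 and 5.38 for Actg2, well over the YFP luminal arrays, but 4.86 for Myh11, the lowest level of this gene on any of the 28 arrays, and 6.18 for Mylk. On the scale from YFP luminal (0) to YFP basal (100) its Acta2 stood at 76.3, Myh11 at -36.6, Mylk at 0.2 and Krt5 at -14.7. Its Pdgfrb, a receptor of mural cells and fibroblasts, was 9.47, the highest of the 7, where the others ran from 5.42 to 8.59, and its Col1a1 was 11.23. Its Rgs5, a pericyte gene, was 6.26, against 4.34 to 9.27 in the others. The part of stromal RNA in its Acta2 was not tested.

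**Figure D4:**
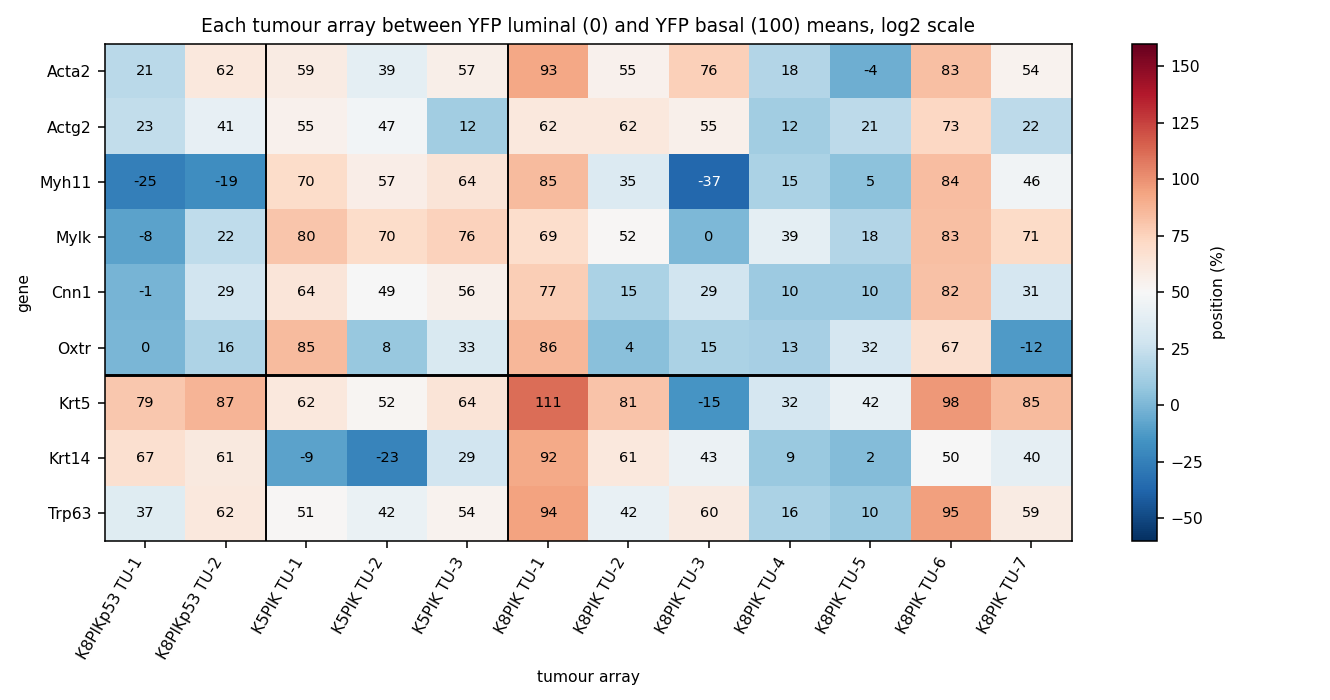
Position of each tumour array (columns) for the 6 contractile genes and the basal genes Krt5, Krt14 and Trp63 (rows), in percent of the distance from the YFP luminal mean (0, blue) to the YFP basal mean (100, red) on the log2 scale. K8PIK TU-1 and K8PIK TU-6 are near the basal end in most rows, K8PIK TU-3 is high for Acta2 and near or below 0 for Myh11, Mylk and Krt5, and the K8PIKp53 TU arrays are high for Krt5 and below 0 for Myh11.

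Over the 7 K8PIK TU arrays the 15 pairs of members were correlated, with exact permutation tests, two-sided. Pearson's r was above 0 for all 15. Myh11 and Mylk had r = 0.951 (p = 0.00159, adjusted p = 0.0238 over the 15 pairs) and Spearman's rank correlation = 0.893 (adjusted p = 0.185, exact permutation). The rank test thus did not pass. Without the 2 tumours farthest from the median of Myh11, r was 0.946 (adjusted p = 0.188, exact permutation). With 5 arrays left there are so few orderings that a lone pair cannot pass the adjustment over 15 pairs. The smaller set therefore does not decide. Acta2 correlated with Actg2 at r = 0.821 and with Cnn1 at 0.799, and with Myh11 at 0.457 and Mylk at 0.443, none of which passed the adjustment by an exact permutation test. By r, 4 of the 15 pairs had an unadjusted p under 0.05, and by ranks none had an adjusted p under it. Cnn1 and Oxtr, at r = 0.806, had r = -0.628 without 2 tumours, so that relation rests on them. The labels give no batch within which to repeat this.

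K5PIK tumours were closer together than K8PIK tumours in most of these genes. They had 9.85, 9.10 and 9.78 for Acta2, 9.93, 9.33 and 9.66 for Myh11, and 10.07, 9.57 and 9.83 for Mylk. Cnn1 was at 7.90, 7.33 and 7.59, Actg2 at 5.36, 5.14 and 4.05 and Oxtr at 5.44, 4.57 and 4.85. On the main probe sets all 3 arrays lay above every YFP luminal array for each of the 6 genes. On the second Acta2 probe set 1 of the 3 did, and on the second Myh11 probe set 2 did. The K5PIK TU means of those 2 probe sets were 3.34 and 3.68, beside YFP luminal means of 3.35 and 3.56. On the Acta2 one all of these arrays were dim, and on the Myh11 one all but 1 K5PIK TU array. These 2 counts thus compare levels near background. On the main probe sets the K5PIK TU means stood at 75.4 for Mylk, 64.0 for Myh11, 56.3 for Cnn1, 51.7 for Acta2, 37.9 for Actg2 and 42.1 for Oxtr on the scale from YFP luminal to YFP basal, beside 59.4 for Krt5 and -0.8 for Krt14.

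Relative to YFP basal cells, the population in which K5CREERT2 is active, 4 of the 6 genes were called lower in K5PIK tumours. Acta2 was at 9.10 to 9.85, against 11.22 to 11.61 in the 4 YFP basal arrays, Actg2 at 4.05 to 5.36, against 6.25 to 7.17, and Cnn1 at 7.33 to 7.90, against 8.95 to 9.75. The groups did not overlap for these genes, nor for Myh11 and Mylk. For Oxtr they overlapped on the main probe set and not on the second, which was at 3.70 to 4.66 in K5PIK TU, against 6.21 or more in YFP basal cells. The differences were -1.88 ± 0.68 for Acta2 (adjusted p = 0.0412), -1.89 ± 0.39 for Actg2 (adjusted p = 0.00124), -1.74 ± 0.58 for Cnn1 (adjusted p = 0.0282) and -0.66 ± 0.25 for Oxtr (adjusted p = 0.0486). Myh11 differed by -1.71 (95% interval -3.65 to 0.23, adjusted p = 0.178) and Mylk by -1.19 (-2.64 to 0.25, adjusted p = 0.209). The fit pools the spread of all 11 groups, and the SD in K8PIK TU was 2.08 for Myh11 and 1.46 for Mylk. In K5PIK TU it was 0.30 and 0.25, and in the YFP basal groups 0.07 to 0.28. The lack of a call thus does not show that Myh11 and Mylk were kept. Of all genes, 15.5% were called higher and 14.5% lower. The second Myh11 probe set was lower by a called amount (-2.32 ± 0.24, adjusted p = 3.86e-06), with 3.99, 3.76 and 3.29 in K5PIK TU, at or near the dim limit, against 5.63 to 6.25 in YFP basal cells. The second Oxtr probe set was lower by -2.70 ± 0.52 (adjusted p = 0.000715).

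The call on the main Acta2 probe set was lost without any 1 of the 7 arrays, with differences of -2.01 to -1.64. Without 1 of the tumour arrays its adjusted p was 0.0704 to 0.132. The calls of Cnn1 and Oxtr were lost without replicate 2 of Basal-K5YFP-8w or of Basal-K5YFP-10m and without K5PIK tumour 2 or 3, and that of Oxtr also without replicate 1 of Basal-K5YFP-10m, with adjusted p of 0.0685 to 0.0873 for Cnn1 (-1.73 to -1.54) and 0.0588 to 0.22 for Oxtr (-0.74 to -0.47). Actg2 was called in each case. Of the other lists, 6 of the 17 genes of contraction fell, led by Prkg1, which fell by 3.07 on the log2 scale (SE 0.34), and Kcnmb1, a subunit of the calcium-activated potassium channel of smooth muscle, which fell by 2.25 (SE 0.47). Of 17 anchors 6 fell, of 11 regulators 3 fell, and of 11 basal genes 8 fell, Krt14 by 3.89 (SE 0.58). Of 12 endothelial genes 6 fell, of 10 mural genes 2 rose and 1 fell, and the mural list averaged 6.25, 6.21 and 7.13 in K5PIK TU, against 5.62 to 6.57 in YFP basal cells. The part of these cells in the contractile levels was not tested.

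Set against K5PIK basal cells, 2 members were called lower in K5PIK tumours. They were Cnn1, by -2.18 ± 0.69 (adjusted p = 0.034), and Oxtr, by -1.12 ± 0.29 (adjusted p = 0.0124). Of all genes, 7.88% were called higher and 9.4% lower. The second Oxtr probe set was at 4.66, 3.70 and 4.48 in K5PIK TU, against 7.45 and 8.98 in Basal-K5PIK-10m, a difference of -3.93 ± 0.62 (adjusted p = 0.000299). The second Myh11 probe set was also called lower (-2.31 ± 0.29, adjusted p = 3.57e-05). Actg2 differed by -1.34 (95% interval -2.31 to -0.36, adjusted p = 0.0541), Acta2 by -1.78 (-3.46 to -0.09), Myh11 by -1.81 (-4.13 to 0.51) and Mylk by -1.26 (-2.99 to 0.46). The Cnn1 call was lost without any 1 of the 5 arrays (adjusted p of 0.0541 to 0.209, differences of -2.50 to -1.87), and that of Oxtr without replicate 2 of Basal-K5PIK-10m (-0.78, adjusted p = 0.193) or K5PIK tumour 2 (-0.93, adjusted p = 0.0546). Without K5PIK tumour 1 Actg2 was called (-1.59, adjusted p = 0.0454). These comparisons share the tumour arrays.

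K5PIK and K8PIK tumours were not told apart by any of the 6 genes, nor by any gene tested. Higher calls were 0% and lower calls 0% of genes, and 1225 genes had an unadjusted p under 0.05 with limma. K5PIK minus K8PIK, the differences were 1.46 for Myh11 (95% interval -0.80 to 3.71), 1.35 for Mylk (-0.31 to 3.02), 0.80 for Cnn1 (-0.61 to 2.20), 0.14 for Oxtr (-0.41 to 0.70), -0.08 for Acta2 (-1.67 to 1.52) and -0.18 for Actg2 (-1.14 to 0.78). The intervals are wide, as the K8PIK tumours were spread.

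The K8PIKp53 tumours, in which p53 was also deleted, had the lowest mean Myh11 of the 11 groups. Myh11 was at 5.41 and 5.71 in K8PIKp53 TU, against 4.86 to 10.65 with a median of 8.26 in K8PIK TU, and Mylk at 5.76 and 7.23, against 6.18 to 10.20 with a median of 8.67. Acta2 was at 8.37 and 9.96 in K8PIKp53 TU, against 7.43 to 11.17 with a median of 9.71 in K8PIK TU. The groups overlapped for all 3. The differences from K8PIK tumours were -2.62 for Myh11 (95% interval -5.25 to 0.00, adjusted p = 0.253), -1.98 for Mylk (-3.91 to -0.04, adjusted p = 0.245), -0.90 for Cnn1 (-2.53 to 0.73), -0.49 for Acta2 (-2.34 to 1.36), -0.35 for Actg2 (-1.47 to 0.76) and -0.24 for Oxtr (-0.89 to 0.40). No member passed, and 0.227% of all genes were called higher and 0.0982% lower.

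Against YFP luminal cells no member passed either, where 12.1% of all genes were called higher and 11.8% lower. The differences were 1.60 for Acta2 (95% interval -0.00 to 3.19, adjusted p = 0.136), 0.98 for Actg2 (0.05 to 1.90, adjusted p = 0.116), 0.55 for Cnn1 (-0.82 to 1.92), 0.33 for Mylk (-1.31 to 1.96), 0.09 for Oxtr (-0.49 to 0.67) and -1.04 for Myh11 (-3.24 to 1.17). Of 11 basal genes outside the contractile group, 6 rose and 1 fell, with Krt5 at 3.35 ± 0.87 and Krt14 at 2.47 ± 0.66. Of the 17 genes of contraction, Cald1 (3.41 ± 0.92), Cacna1c (2.42 ± 0.53) and Tpm2 (2.04 ± 0.58) rose and Ppp1r12a and Rock1 fell. Of 11 tested fibroblast genes 7 rose, with Col1a1 at 4.80 (SE 1.21), and the fibroblast list averaged 7.14 and 7.69 in K8PIKp53 TU, against 4.59 to 5.52 in YFP luminal cells.

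Over the 11 group means the members resembled each other, with Pearson's r from 0.778 for Actg2 and Oxtr to 0.974 for Myh11 and Mylk. With Trp63 their r ran from 0.847 to 0.960, with Krt5 from 0.648 to 0.857 and with Krt14 from 0.633 to 0.845. These are descriptions over 11 points that share arrays, gates and normalization. The 10 other genes whose group means followed the mean profile of the 6 most closely, among genes whose group means spanned at least 1 log2 unit, were Ksr1, Plxdc2, Apoe, Col14a1, Fgf2, Lama1, Scn7a, Kcnmb1, Marchf3 and Spock2, with r from 0.971 to 0.984. Ksr1, the closest, ranged from 5.75 to 7.99 over the group means and Scn7a from 4.14 to 10.2. The genes most like each member alone were Id4, Plpp3 and Eln for Acta2 (r = 0.990 for Id4), Drp2, Cblb and Ptpre for Actg2, Il17b, Marchf3 and Rbms3 for Myh11, Marchf3, Ptx3 and Il17b for Mylk, Ksr1, Kcnmb1 and Ntng2 for Cnn1, and Zfp296, Mrvi1 and Aoc3 for Oxtr.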

How the data were processed

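The authors deposited log2 expression values for 28 arrays. Per the submitters' processing notes R 2.14.0 was used, and background correction, normalization and genome build are not given in the sources used here. The deposited values ran from 1.67 to 12.7, and sorted values differed between arrays by 0.558 or less at every rank, so the table was used without rescaling. Arrays carry no read depth, so their number limits the precision.

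Of 29449 annotated probe sets, 28898 had 1 symbol and were kept. The 551 with several symbols and the 15692 with no entry were left out. Samples were grouped by the labels alone. A linear model with 1 mean per group (limma 3.58.1, R 4.3.3) was run on the 16 sorted arrays (13150 genes), the 12 tumour arrays (13244 genes) or, for tumours against sorted cells, all 28 (13663 genes), after the code was tested on simulated data. In those contrasts the YFP reference was the mean of both times. The spread of a gene was pooled over all groups of a fit, so the spread of the tumours enters every fit of all 28 arrays. Permutation tests used scipy 1.17.1. The members, lists, tests and the rule for named genes (the 6 members, Krt5, Krt14 and Trp63, up to 4 called genes per list and comparison, and the genes most like the members) were chosen with earlier results of these data known. Names outside that rule were chosen after their values were seen.

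Alternatives were another fit, filter, prior, scaling or probe set, each array left out, and the replicate number as a block.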

Additional observations from a re-analysis of the deposited data

Results flagged for a closer look

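In the K8PIK TU group the second and weaker Acta2 probe set had 1 array apart from the rest. Tumour 4 was at 4.22 and the other 6 at 3.19 to 3.63, and its gap to the nearest, 0.5732 of the group's range, exceeded the critical value of 0.568 for 7 samples. All but tumour 4 were dim on this probe set, and the main Acta2 probe set of tumour 4, at 8.26, was among the lower ones. Chance alone sets a sample apart in this way in about 1 of 20 groups. The check was also made on the other member probe sets and on Krt5, Krt14 and Trp63, and none of those exceeded the value.

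The basal to luminal gap of Mylk at 10 months differed between K5PIK and YFP mice by -2.3734 on the log2 scale, a tested difference of 2 gaps (adjusted p = 0.044). The other Mylk probe sets gave 0.12 and -0.83.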

How the results depend on the processing

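The 20 counts of members called were recomputed under each alternative. Over 1634 recomputed values of single members, 520 were calls as reported, of which 448 kept call and direction and 71 lost the call, while 34 calls were gained and 1 reversed. The 1 that reversed was the Mylk gap between K5PIK and YFP mice at 10 months, at 0.12 on the second probe set. That gap was called for 0 members in a fit of all 28 arrays, 0 with no filter on dim probe sets and 2 with the replicate block. In a fit of all 28 arrays K5PIK luminal cells had 0 called against YFP luminal cells. The mean of all probe sets of a gene gave 2 calls for K5PIK against YFP basal cells, and 4 for K5PIK tumours against K5PIK basal cells. With no filter, K5PIK tumours had 2 called against YFP basal cells. With the replicate block there was 1 call for K5PIK against YFP basal cells, 3 for K8PIK tumours against K8PIK luminal cells, 2 for K8PIKp53 tumours against YFP luminal cells and 4 for K5PIK tumours against K5PIK basal cells. The block moved no other count by over 1.5 times. Over 28 pairs of sorted groups the deviations of same-numbered arrays correlated at -0.0775 to 0.387, 12 of them over 0.1 and 0 under -0.1. Not every pair was over 0.1 and the labels give no shared animal or day, so the numbers were not taken as pairs, though a shared source is not excluded.

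Leaving out 1 array gave 0 to 1 calls for K5PIK against YFP basal cells, 0 to 1 for older against younger YFP luminal cells, 0 to 2 for K5PIK against YFP luminal cells and 0 to 1 for the gap at 10 months. It gave 0 to 4 for K8PIK tumours against YFP luminal cells, 0 to 1 against K8PIK luminal cells and 1 to 5 against K8PIK basal cells. It gave 1 to 3 for K5PIK tumours against YFP basal cells and 0 to 2 against K5PIK basal cells. Fewer arrays were tested in these fits. Quantile normalization, a stricter filter and a trended robust prior each kept all 40 calls. Of the correlated pairs, 0 passed without the 2 arrays farthest from the median, but with 5 arrays left a lone pair could not pass. Causes of the other changes were not tested. Low levels of Actg2, Oxtr and the weaker probe sets lie near the dim limit, where differences are compressed.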
